A study of Mus musculus with 16 samples.

Results

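Rbm3 (RNA binding motif protein 3) and Cirbp (cold inducible RNA binding protein) are 2 of the 27998 genes counted in 4 single-cell RNA libraries of mouse kidney. The pair was chosen by its UMI levels in these libraries, so its genotype difference is described here without a test. The mutant animals were Gulo-/- mice, which lack the enzyme of the final step of vitamin C synthesis and depend on dietary vitamin C. Wild type mice were the controls, and all animals were C57BL/6. The labels do not give age, diet, vitamin C supply or sex. The series holds 16 samples, with 2 Gulo-/- and 2 wild type samples in each of 4 assays. The single-cell libraries and the authors' tables of cluster markers and of regions differing in methylation were used. The m6A immunoprecipitation and RNA-seq samples were not analysed here. Each kidney preparation was chopped and mixed before it was split over the assays. Whether replicates stand for different animals is not stated, so the spread between them may be partly technical.

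RBM3 and CIRBP are small glycine-rich proteins with a single RNA recognition motif. Mild cooling, and for Cirbp also ultraviolet light, raises their mRNAs in many mammalian cells, while heat lowers them. Both bind mRNAs and influence their splicing, polyadenylation, stability and translation. CIRBP released from stressed cells is known as an inflammatory signal, including in injured kidney.

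In the RefSeq annotation of GRCm38.p6, the genome that mm10 also names, Cirbp lies at chr10:80165990-80172786 and Rbm3 at chrX:8138975-8145880 on the minus strand. Rbm3os, an antisense RNA, overlaps the Rbm3 start at chrX:8145427-8147964. Of the pair, Cirbp matched the RefSeq promoter table, with start-site windows at chr10:80167589-80167888 and chr10:80167921-80168220, both on the plus strand. The sequence of the window that starts at 80167589 is shown because it holds the mild-cold responsive element, an octamer described in mouse Cirbp, here in capitals:

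Cirbp: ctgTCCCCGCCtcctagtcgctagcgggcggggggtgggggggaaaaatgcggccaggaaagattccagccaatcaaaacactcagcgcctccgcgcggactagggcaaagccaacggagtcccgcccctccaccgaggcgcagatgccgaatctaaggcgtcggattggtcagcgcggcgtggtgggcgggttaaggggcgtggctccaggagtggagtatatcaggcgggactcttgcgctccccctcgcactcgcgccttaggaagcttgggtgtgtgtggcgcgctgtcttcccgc

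The element TCCCCGCC, searched on both strands, begins 247 bases before the start site of that window. It occurs in 5.38% of the 32851 RefSeq promoter windows of this length. The GC box GGGCGG, which can share letters with it, occurs in 35.7% of these windows and 3 times in the window shown, at no base of the octamer. A match is a description of letters, not of a working site.

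The 2 Gulo-/- libraries held 2919 and 16822 barcodes with 10073836 and 88925323 UMIs (unique molecules), and the 2 wild type libraries held 2090 and 11829 barcodes with 10208946 and 61688164 UMIs. In both genotypes replicate 1 was thus the shallow library and replicate 2 the deep one. Xist and Ddx3y counts read Gulo-/- replicate 1 and wild type replicate 2 as male, and Gulo-/- replicate 2 and wild type replicate 1 as female, so that sex is crossed with replicate number. The wild type libraries shared 986 barcodes, against 9 to 282 in the other pairs of libraries, and these were taken out of wild type replicate 2. Gulo itself had 0 and 2 UMIs in the Gulo-/- libraries and 0 and 1 in the wild type libraries, too few to check the labels. After filters 1877 and 13962 Gulo-/- cells and 1595 and 7541 wild type cells were kept. Cells were assigned to 13 classes by UMIs of marker genes, and the kidney's proximal tubule markers defined 540 and 2054 Gulo-/- cells and 735 and 4405 wild type cells. Rbm3os had 2 and 45 UMIs in the kept Gulo-/- cells and 2 and 14 in the wild type cells. Whether counting used the strand, and so kept it apart from Rbm3, is not stated.

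Rbm3 UMIs were more frequent in both Gulo-/- libraries than in both wild type libraries. Over all kept cells it had 3228 and 31594 UMIs in Gulo-/- replicates 1 and 2, or 427 and 397 CPM (UMIs per 1e6 UMIs of those cells). Wild type replicates 1 and 2 had 917 and 3597 UMIs, or 107 and 75.6 CPM. The groups did not overlap, and the male and female library of each genotype lay closer to each other than to either library of the other genotype. The mean was 412 ± 21.3 CPM in Gulo-/- cells and 91.0 ± 21.9 CPM in wild type cells (SD, n = 2 each). In bulk sums such as this, a change in cell types and a change per cell cannot be told apart, and proximal tubule cells were 28.8% and 14.7% of Gulo-/- cells against 46.1% and 58.4% of wild type cells.

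The order held inside the gated classes. In proximal tubule cells, which reabsorb most of the filtrate, Rbm3 had 339 and 364 CPM in Gulo-/- libraries, against 84.1 and 62.3 CPM in wild type libraries. In cells of the thick ascending limb, a salt-reabsorbing segment, it had 269 and 325 CPM in Gulo-/- libraries, against 89.2 and 85.8 CPM in wild type libraries. Neither class showed any overlap between genotypes. Endothelial cells had 380 and 612 CPM in Gulo-/- libraries and 123 and 202 CPM in wild type libraries. Macrophages had 289 and 542 CPM in Gulo-/- libraries and 97.1 and 178 CPM in wild type libraries. Here too every Gulo-/- library lay above every wild type library, with a wider spread within each genotype. The classes come from the same libraries, so the same order in several classes is not independent. The share of all genes with such an order is not given, here or for Cirbp below. Principal cells of the collecting duct had 331 and 460 CPM in Gulo-/- libraries and 60.2 and 127 CPM in wild type libraries, and intercalated cells had 350 and 394 CPM against 53.3 and 74.2 CPM, though wild type replicate 1 held 17 and 11 such cells.

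Cirbp had a higher level in Gulo-/- cells within each replicate number, over all kept cells and in the 4 fitted classes, but its libraries of the same genotype stood far apart. Over all kept cells it had 390 and 14367 UMIs in Gulo-/- replicates 1 and 2, which is 51.6 and 181 CPM. Wild type replicates 1 and 2 had 140 and 1786 UMIs, which is 16.3 and 37.5 CPM. The groups did not overlap over all cells, but in proximal tubule and thick ascending limb cells Gulo-/- replicate 1 fell below wild type replicate 2. Proximal tubule cells had 28.2 and 101 CPM in Gulo-/- libraries, against 11.5 and 34.7 CPM in wild type libraries. Thick ascending limb cells had 33.6 and 137 CPM in Gulo-/- libraries, against 13.7 and 42.9 CPM in wild type libraries, where wild type replicate 1 contributed 2 UMIs from 40 cells. Without overlap, endothelial cells had 106 and 369 CPM in Gulo-/- libraries and 40.9 and 83.4 CPM in wild type libraries, and macrophages had 72.2 and 240 CPM in Gulo-/- libraries and 44.8 and 20.1 CPM in wild type libraries. The macrophage values rest on 9 and 78 UMIs in Gulo-/- libraries and on 6 and 11 UMIs in wild type libraries. In wild type replicate 1, Cirbp was not detected in 10 distal convoluted and connecting tubule cells or in 11 intercalated cells, and a count of 0 there allows up to 71.4 and 53.3 CPM.

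**Figure D1:**
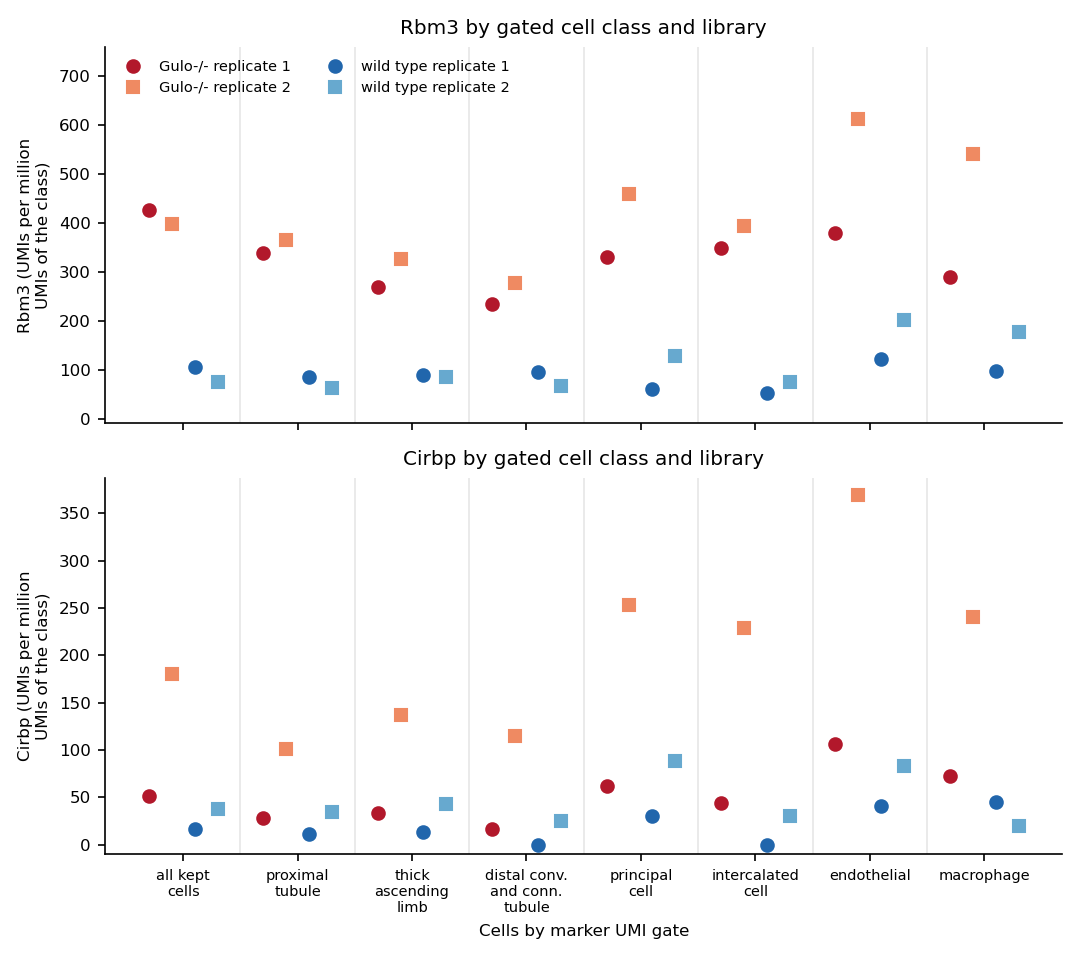
Rbm3 (top) and Cirbp (bottom) in CPM, for all kept cells and 7 gated classes (x axis), with 1 point per library (red shades, Gulo-/-; blue shades, wild type; circles, replicate 1; squares, replicate 2). The Gulo-/- points of Rbm3 lie above the wild type points in each class shown, from 235 to 612 CPM against 53.3 to 202 CPM, while the Cirbp points of Gulo-/- replicate 1 lie among the wild type points in several tubule classes.

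In the 4 fitted classes the fitted differences put both genes at the high end of the genes tested, with a larger error for Cirbp. On UMI sums per library, edgeR gave Rbm3 a log2 difference (Gulo-/- minus wild type) of 2.09 ± 0.30 (SE) in proximal tubule, 1.68 ± 0.34 in thick ascending limb, 1.43 ± 0.34 in endothelial and 1.35 ± 0.45 in macrophage gated cells. Of all genes tested, 2.05%, 0.826%, 2.10% and 3.52% had a difference at least as high in these classes. Cirbp had 1.30 ± 0.84 in proximal tubule, 1.28 ± 0.38 in thick ascending limb, 1.72 ± 0.68 in endothelial and 2.37 ± 0.63 in macrophage gated cells. For it, 5.25%, 1.85%, 1.08% and 0.606% of genes were at least as high. Both genes passed the filter on low counts in every one of these fits, and the rule that chose them used this contrast, so the ranks are a description. Over all kept cells the ranks were lower, with 9.51% of 14118 genes at least as high as Rbm3 and 10.8% at least as high as Cirbp. The fitted values over all kept cells were 1.67 ± 0.29 for Rbm3 and 1.55 ± 0.68 for Cirbp. The log2 ratios of mean CPM there were 2.18 and 2.11, which is 0.51 and 0.56 above the normalized values. Without Gulo-/- replicate 2, the Cirbp difference was -0.12 in thick ascending limb cells, 0.17 in proximal tubule cells and 0.67 in endothelial cells, while leaving out wild type replicate 2 gave 2.82, 2.24 and 2.45. Leaving out Gulo-/- replicate 1 gave 1.78, 1.89 and 2.29 in these classes. Leaving out wild type replicate 1 gave 1.01 in thick ascending limb and 0.78 in proximal tubule cells.

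The 2 genes differed in how they varied between replicates of a genotype. With replicate number in the model, replicate 2 minus replicate 1 was 1.61 for Cirbp in proximal tubule cells, 1.88 in thick ascending limb cells, 1.47 in endothelial cells and 0.75 in macrophages on the log2 scale. For Rbm3 the same quantity was -0.27, 0.12, 0.68 and 0.87. Of all genes tested, 1.36% in proximal tubule, 0.811% in thick ascending limb and 0.582% in endothelial cells had a replicate difference at least as high as Cirbp. In these 3 classes fewer genes reached it than reached the genotype difference of Cirbp, while in macrophages 11.6% did. In proximal tubule cells the Cirbp CPM of replicate 2 was 3.57 times that of replicate 1 among Gulo-/- libraries and 3.02 times among wild type libraries, whereas for Rbm3 these ratios were 1.08 and 0.741. In Gulo-/- over wild type ratios within a replicate number, Rbm3 was at 4.03 for replicate 1 and 5.85 for replicate 2 in proximal tubule cells, and Cirbp was at 2.45 and 2.90. In ratios within a sex, Rbm3 was at 5.44 in the male and 4.33 in the female libraries, but Cirbp was at 0.813 in the male and 8.75 in the female libraries. The number of cells and UMIs in a library goes with replicate number, and these cannot be told apart. Depth per cell did not follow it in proximal tubule cells, whose median was 3923 and 3115.5 UMIs in Gulo-/- replicates 1 and 2, against 3923 and 5561 UMIs in wild type replicates 1 and 2.

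**Figure D2:**
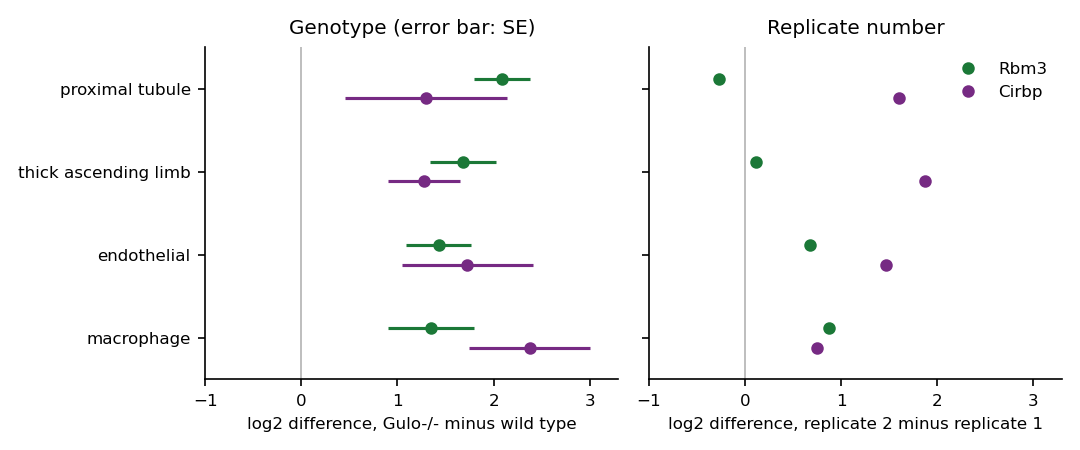
Log2 differences of Rbm3 (green) and Cirbp (purple) in 4 gated classes (rows), for genotype (left, Gulo-/- minus wild type, bars are the SE of the edgeR fit) and for replicate number (right, replicate 2 minus replicate 1, from the fit with both terms). Rbm3 differs by genotype by 1.35 to 2.09 and by replicate by -0.27 to 0.87, while Cirbp differs by 1.28 to 2.37 and by 0.75 to 1.88.

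Within each replicate number the share of cells with a UMI was higher in Gulo-/- cells, over all kept cells and in the 4 fitted classes. This held at the cells' own depth and after thinning to a common depth. Across replicate numbers there was overlap. At their own depth, 43.1% of macrophages in Gulo-/- replicate 1 had an Rbm3 UMI, against 52.4% in wild type replicate 2. For Cirbp over all kept cells these shares were 16.9% and 19.7%, and the tubule and endothelial classes fell in the same order. In proximal tubule cells, 71.1% and 66.9% of Gulo-/- cells had an Rbm3 UMI, against 31.7% and 31.3% of wild type cells. Cirbp was found in 11.7% and 31.5% of Gulo-/- cells, against 5.31% and 19.5% of wild type cells. With each cell thinned to 1000 UMIs, a depth that every kept cell reached, the Rbm3 shares were 30.1% and 29.7% in Gulo-/- and 7.91% and 5.80% in wild type proximal tubule cells. The thinned Cirbp shares were 3.10% and 9.87% in Gulo-/- and 0.896% and 3.24% in wild type cells, so Gulo-/- replicate 1 lay just below wild type replicate 2. Endothelial cells had the highest thinned Rbm3 shares of the 4 fitted classes in each of the 4 libraries, with 31.6% and 46.1% in Gulo-/- and 12.2% and 18.6% in wild type cells. In Gulo-/- replicate 1 this was close to the 30.1% of proximal tubule cells.

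Erythroid gated cells, which carry little mRNA besides globin, served as a background. In wild type replicate 2, 14 of 123 such cells had an Rbm3 UMI (11.4%, 95% exact binomial interval 6.36% to 18.4%, median depth 4049 UMIs) and 7.32% had a Cirbp UMI. Thinned, these shares were 2.3% and 1.41%, below the 5.80% and 3.24% of that library's proximal tubule cells, whose median depth was 5561 UMIs. Rbm3 of proximal tubule cells was thus above the level of these gated cells, and Cirbp of macrophages in that library, at 2.42% after thinning, was nearer to it. That level is not one of cells without other mRNA. In the 56 cells of that gate with at least 50% of their UMIs from erythroid markers, a class added after the values were seen, the thinned shares were 1.4% for Rbm3 and 0.341% for Cirbp. The Gulo-/- libraries had 5 and 10 erythroid cells and wild type replicate 1 had 2, too few for a background, and the thinned Rbm3 shares in the 5 and 10 cells were 17.9% and 11.8%. In the stricter class they were 13.2% in 4 cells of Gulo-/- replicate 1 and 2.46% in 8 cells of Gulo-/- replicate 2. Intervals cover counting error only.

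**Figure D3:**
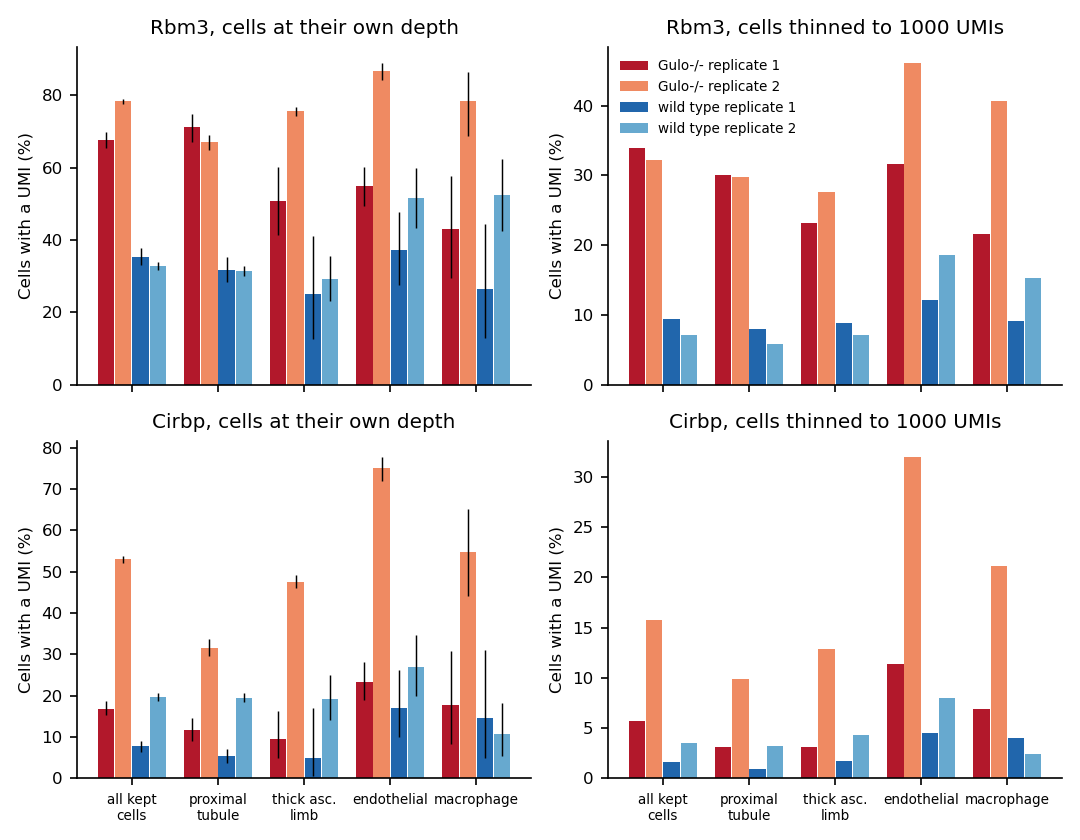
Percent of cells with at least 1 UMI of Rbm3 (top) or Cirbp (bottom) in all kept cells and 4 gated classes, per library (red shades, Gulo-/-; blue shades, wild type), at the cells' own depth (left, bars with 95% exact binomial intervals) and thinned to 1000 UMIs (right). After thinning, Rbm3 in proximal tubule cells stands at 30.1% and 29.7% in Gulo-/- libraries and at 7.91% and 5.80% in wild type libraries, and the 4 panels have their own scales.

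Marker RNA of the collecting duct was more frequent in other cell classes of the Gulo-/- libraries. In proximal tubule gated cells, the 4 principal cell markers summed to 109 and 312 CPM in Gulo-/- libraries, against 30.4 and 55.7 CPM in wild type libraries, and Aqp2, the vasopressin-regulated water channel, had 54.5 and 212 CPM in Gulo-/- libraries, against 1.79 and 18.7 CPM in wild type libraries. This list was higher in both Gulo-/- libraries in each of the 4 fitted classes, and no other class's list was higher in both wild type libraries in any of them. Of the 12 lists of other classes, 4 were higher in both Gulo-/- libraries in proximal tubule cells and 5 in thick ascending limb cells. This held for 3 in endothelial cells and 3 in macrophages, and the other lists overlapped between genotypes. Some of the lists counted stood at low levels. The podocyte list in proximal tubule cells had 0.387 and 2.27 CPM in Gulo-/- libraries, against 0 and 0.202 CPM in wild type libraries. The stromal list in thick ascending limb cells had 2.58 and 2.29 CPM in Gulo-/- libraries, against 0 and 0 CPM in wild type libraries. Whether these counts of lists exceed those of libraries without a genotype difference was not tested. Against their own level in principal cells, the principal cell markers in proximal tubule cells stood at 0.407% and 1.0% in Gulo-/- libraries and at 0.396% and 0.328% in wild type libraries. All 4 markers were detected in proximal tubule cells of both Gulo-/- libraries, while wild type replicate 1 had 1 of them at 0 there and 4 at 0 in thick ascending limb cells. Rbm3 itself had 339 and 364 CPM in proximal tubule cells beside 331 and 460 CPM in principal cells of the Gulo-/- libraries, and 84.1 and 62.3 CPM beside 60.2 and 127 CPM in the wild type libraries. The part of such RNA in the difference of either gene was not tested.

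Across cell types, endothelial cells carried more of both genes than proximal tubule cells in each of the 4 libraries. By mean CPM in Gulo-/- libraries the 7 larger classes ran, for Rbm3, from endothelial (496 ± 164, SD, n = 2) through macrophage, principal, intercalated, proximal tubule (352 ± 18.2) and thick ascending limb (297 ± 40.2) to distal convoluted and connecting tubule cells (256 ± 30.7). In wild type libraries the order was endothelial (162 ± 56.2), macrophage, principal, thick ascending limb (87.5 ± 2.39), distal convoluted and connecting tubule, proximal tubule (73.2 ± 15.4) and intercalated cells (63.8 ± 14.7). Neighbours in these orders overlapped between libraries, except proximal tubule and thick ascending limb in Gulo-/- mice. Compared within a library, some neighbours still kept their order, such as endothelial cells above macrophages in each of the 4. T and NK cells had still more Rbm3, with 1025 CPM in 103 cells of Gulo-/- replicate 2, against 411 and 420 CPM in 15 and 43 cells of the wild type libraries. The gate found none of them in Gulo-/- replicate 1. B cells had 747 CPM in 109 cells of Gulo-/- replicate 2 and 186 CPM in 55 cells of wild type replicate 2.

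For Cirbp, endothelial cells had the highest mean of these 7 classes in both genotypes, with 237 ± 186 CPM in Gulo-/- and 62.1 ± 30 CPM in wild type libraries (SD, n = 2 each), followed by principal cells with 158 ± 135 and 59.1 ± 41.1 CPM. They led in neither wild type library taken alone. Macrophages were higher in wild type replicate 1 (44.8 against 40.9 CPM), and principal cells in wild type replicate 2. The principal cell value of wild type replicate 1 rests on 2 UMIs from 17 cells. Every neighbouring pair of classes overlapped between libraries, though within both Gulo-/- libraries endothelial cells stood above principal cells. Within Gulo-/- replicate 2, the deepest library, Cirbp stood at 369 CPM in endothelial, 253 CPM in principal, 228 CPM in intercalated, 137 CPM in thick ascending limb and 101 CPM in proximal tubule cells. Within wild type replicate 2 it stood at 83.4 CPM in endothelial, 88.2 CPM in principal, 30.4 CPM in intercalated, 42.9 CPM in thick ascending limb and 34.7 CPM in proximal tubule cells. The authors' deposited table of cluster markers, which names no genotype, lists Cirbp for the clusters CD-PC (74.0% of its cells against 33.9% of other cells), CD-IC2 (73.0% against 34.3%) and EPI (66.1% against 34.4%). In the authors' deposited table Rbm3 appears for CD-PC alone, with 89.0% of its cells against 58.1% of other cells. The authors' natural log ratio there was 0.40 for Rbm3 and 0.52 for Cirbp. The principal cell gate held 126 and 998 Gulo-/- cells but 17 and 74 wild type cells. Such shares can thus mix genotype with cell type. Rbm3 had 331 and 460 CPM in Gulo-/- and 60.2 and 127 CPM in wild type principal cells. Over all kept cells it had 427 and 397 CPM, against 107 and 75.6 CPM.

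The number of Rbm3 UMIs per Cirbp UMI differed more by replicate number than by genotype over all kept cells. It is a ratio of molecules captured, not corrected for how well each transcript is captured. Over all kept cells the ratio was 8.28 (95% counting interval 7.45 to 9.22) and 2.20 (2.16 to 2.24) in Gulo-/- replicates 1 and 2, against 6.55 (5.48 to 7.88) and 2.01 (1.90 to 2.13) in wild type replicates 1 and 2. Replicate 1 was the higher in both genotypes. In proximal tubule cells the ratio was 12 and 3.62 in Gulo-/- libraries, against 7.31 and 1.80 in wild type libraries, with intervals that did not overlap between genotypes in replicate 2. Endothelial cells had ratios of 3.58 and 1.66 in Gulo-/- libraries and 3.0 and 2.43 in wild type libraries, below those of proximal tubule cells except in wild type replicate 2. Macrophages broke the order, with 4.0 and 2.26 in Gulo-/- libraries and 2.17 and 8.82 in wild type libraries.

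Splitting cells by depth, a step added after the values were seen, left both patterns in place. Among proximal tubule cells with 5000 UMIs or more, Rbm3 had 318 and 368 CPM in Gulo-/- libraries, against 83.2 and 63.8 CPM in wild type libraries. Among those with 2000 to 5000 UMIs it had 371 and 361 CPM in Gulo-/- libraries, against 87.0 and 57.5 CPM in wild type libraries. The genotypes were thus apart at either depth. Over all kept cells with 5000 UMIs or more the ratio was 9.88 and 2.13 in Gulo-/- libraries, against 7.50 and 1.95 in wild type libraries. Cells with both genes were about as frequent as the product of the separate shares, at 2.02% and 5.70% of thinned Gulo-/- cells beside products of 1.93% and 5.08%, and at 0.172% and 0.299% of thinned wild type cells beside products of 0.154% and 0.253%.

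**Figure D4:**
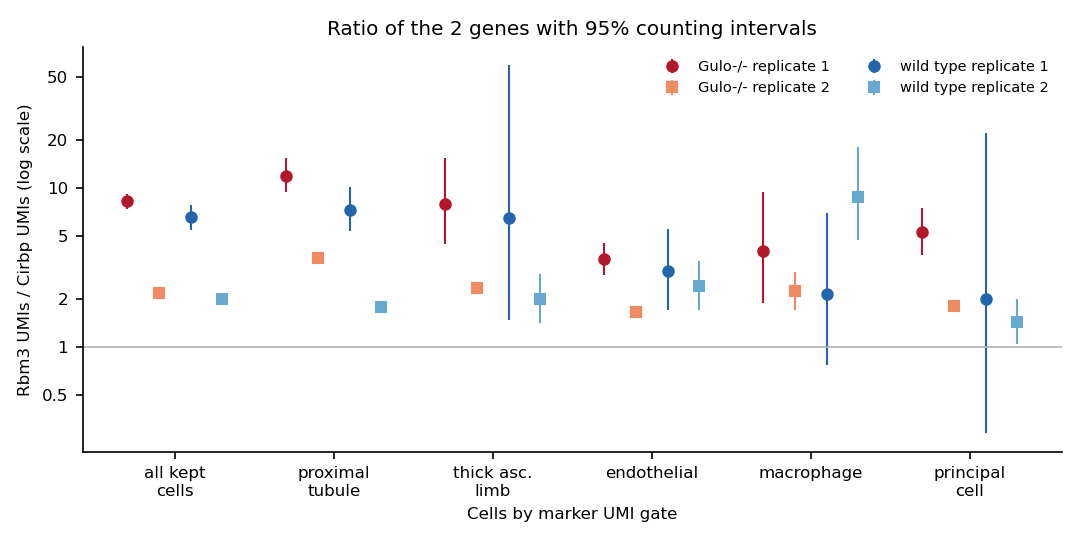
Rbm3 UMIs divided by Cirbp UMIs (log scale) per library in all kept cells and 5 gated classes, with 95% counting intervals (red shades, Gulo-/-; blue shades, wild type; circles, replicate 1; squares, replicate 2). Over all cells the circles lie at 8.28 and 6.55 and the squares at 2.20 and 2.01, in each case Gulo-/- and then wild type.

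Genes related to the pair by function were read from the same fits, where background calls were few. Over all kept cells edgeR's quasi-likelihood test called 0 of 14118 genes at an adjusted p under 0.05 (0% higher and 0% lower), while 4454 had an unadjusted p under 0.05 and DESeq2 called 2513. Genes called higher and lower were 0.265% and 0.246% of 10585 in proximal tubule cells, 0.991% and 1.13% of 6658 in thick ascending limb cells, 0.122% and 0.433% of 7383 in endothelial cells and 0.227% and 0.531% of 2639 in macrophages. Genes with an edgeR unadjusted p under 0.05 were 1635 of 10585 in proximal tubule and 502 of 6658 in thick ascending limb cells. They were 828 of 7383 in endothelial cells and 287 of 2639 in macrophages, the background for the member counts below. DESeq2 called 103 higher and 140 lower of 16756 genes in proximal tubule cells. In thick ascending limb cells it called 10 higher and 7 lower of 16874. The cells of the distal convoluted and connecting tubule were not fitted, as wild type replicate 1 had 10.

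Temperature-dependent splicing is known to run through CLK kinases and the SR proteins that they phosphorylate, and this list had no call. Neither edgeR nor DESeq2 called a member in any of the 4 classes, and 0, 1, 0 and 0 of its 18, 17, 17 and 10 tested members had an unadjusted p under 0.05 in proximal tubule, thick ascending limb, endothelial and macrophage cells. Its median log2 difference was 0.15 in proximal tubule and 0.20 in thick ascending limb cells, beside 0.01 and 0.00 for all genes. Srsf5, an SR protein gene, had 128 and 187 CPM in Gulo-/- and 118 and 121 CPM in wild type proximal tubule cells. In thick ascending limb cells Srsf5 had 121 and 216 CPM in Gulo-/- and 61.8 and 112 CPM in wild type libraries, a log2 difference of 0.75 ± 0.33 that did not pass (edgeR adjusted p = 0.44). The hnRNP relatives, RNA-binding proteins of which several share the fold of RBM3, also had no call by edgeR or DESeq2 in any of the 4 classes, with 3, 1, 3 and 0 members at an unadjusted p under 0.05. Their medians were 0.21 in proximal tubule and 0.33 in thick ascending limb cells, with 19 of 22 and 18 of 22 members above 0. Hnrnpa2b1 had 314 and 350 CPM in Gulo-/- and 285 and 280 CPM in wild type proximal tubule cells.

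The cold shock domain proteins, named for a domain first known from bacteria, had no call by edgeR or DESeq2 among 4 tested members in proximal tubule cells, with 1 at an unadjusted p under 0.05. Ybx1, the most abundant, had 654 and 761 CPM in Gulo-/- libraries, against 700 and 1724 CPM in wild type libraries, a log2 difference of -0.92 ± 0.39 (edgeR adjusted p = 0.32). Heat shock genes, which respond to temperature in the opposite sense, had medians below 0 in all 4 classes, at -0.67 in proximal tubule, -0.24 in thick ascending limb, -0.50 in endothelial and -0.53 in macrophage cells. Without wild type replicate 1 the median was -0.06 in endothelial and -0.16 in macrophage cells. With all 4 libraries none was called lower by edgeR, with 10, 1, 3 and 1 members at an unadjusted p under 0.05 in these classes, while DESeq2 called 3 of 20 lower in proximal tubule cells. Calls of members changed in number and direction when 1 library was left out. Calls over all genes changed as well, so these are not counted here. Hsp90ab1, a cytosolic chaperone, had 362 and 467 CPM in Gulo-/- and 703 and 669 CPM in wild type proximal tubule cells, a log2 difference of -0.90 ± 0.27 (edgeR adjusted p = 0.18). Hspa8, the constitutive Hsp70, had 801 and 1026 CPM in Gulo-/- and 2070.4 and 806 CPM in wild type cells, with overlap. In endothelial cells 5 of 20 members were above 0, and Cryab, a small heat shock protein, was called higher. Cryab had 267 and 336 CPM in Gulo-/- libraries, against 57.7 and 21.3 CPM in wild type libraries (log2 difference 2.85 ± 0.38, edgeR adjusted p = 0.0163). It was the single call among the 20 members. The call was lost without either wild type library or without the 5% of cells with the most UMIs. The part of RNA from tubule cells in these values was not tested.

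Immediate early genes, induced within minutes by stress and by tissue dissociation, included the most calls of any list, all in the thick ascending limb and proximal tubule. In the thick ascending limb 13 of 17 tested members were called higher and 0 lower. Socs3, a feedback inhibitor of cytokine signalling, had 33.6 and 59.4 CPM in Gulo-/- libraries, against 20.6 and 3.43 CPM in wild type libraries (log2 difference 3.01 ± 0.57, edgeR adjusted p = 4.47e-05). Dusp1, a MAP kinase phosphatase, had 72.3 and 169 CPM in Gulo-/- libraries, against 6.86 and 27.5 CPM in wild type libraries (2.33 ± 0.40, adjusted p = 2.56e-06). Some of these wild type counts were low. In this class 3 UMIs equal 20.6 CPM in wild type replicate 1 and 2.58 CPM in wild type replicate 2. Both wild type values of Socs3 thus rest on few UMIs, and Dusp1 in wild type replicate 1 lay below 3 UMIs. Junb, an AP-1 subunit, had 183 and 329 CPM in Gulo-/- libraries, against 68.6 and 60.1 CPM in wild type libraries (1.95 ± 0.35, adjusted p = 1.16e-05). Egr1, Klf2 and Zfp36 were also among the 6 with the largest differences, at 2.11 to 2.89. Klf2 and Zfp36 had no UMI in wild type replicate 1. The filter on low counts can be met by the Gulo-/- libraries alone, so members low in wild type libraries could enter through them. How many of the 13 did so was not counted. Fewer members were called without Gulo-/- replicate 2 or without either wild type library, and 3 of 24 were called with DESeq2.

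In proximal tubule cells, 2 of 22 immediate early members were called higher and 0 lower. Klf2, a flow-responsive transcription factor, had 29.4 and 49.8 CPM in Gulo-/- libraries, against 3.83 and 5.01 CPM in wild type libraries (log2 difference 2.97 ± 0.34, edgeR adjusted p = 0.0234). Egr1, an immediate early zinc finger factor, had 16.2 and 20.6 CPM in Gulo-/- libraries, against 3.32 and 2.29 CPM in wild type libraries (2.65 ± 0.37, adjusted p = 0.0300). The list median was 1.83, with 22 of 22 members above 0. Calls were lost without either Gulo-/- library and more frequent without either wild type library, and calls over all genes moved the same way. DESeq2 called 9 members. In endothelial cells and in macrophages none of the 22 and 21 tested members was called by edgeR or DESeq2, with 6 and 2 at an unadjusted p under 0.05. In macrophages edgeR called some members higher without wild type replicate 1 or Gulo-/- replicate 1, and some lower without wild type replicate 2. Calls over all genes in this class rose in each of these fits. The list median there was 0.62, and it ranged from -0.17 to 1.28 with 1 library left out. In endothelial cells it was 0.61, with a range of 0.17 to 1.29 and no call in any of these fits. Rbm3 and these genes were measured in the same dissociated cells, and the part of handling in either was not tested.

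The remaining lists held a single edgeR call. Circadian clock genes, whose amplitude CIRBP and RBM3 are known to shape through alternative polyadenylation, had no edgeR call among 16 tested members in proximal tubule cells, with 1 at an unadjusted p under 0.05 and 1 called higher by DESeq2. Dbp, a clock output gene, had 102 and 24.4 CPM in Gulo-/- and 184 and 56.1 CPM in wild type proximal tubule cells, so that it varied between replicates more than between genotypes. Among hypoxia genes, Ddit4, an inhibitor of mTOR signalling, rose in macrophages to 289 and 240 CPM in Gulo-/- libraries, against 59.8 and 20.1 CPM in wild type libraries (log2 difference 2.80 ± 0.53, edgeR adjusted p = 0.0367). It was 1 of 7 tested members, none was called lower, and DESeq2 called none. The call was also lost with the libraries paired by sex and at a mitochondrial limit of 25%. Of the messengers reported as bound by the pair, Txn1, encoding thioredoxin, had 789 and 683 CPM in Gulo-/- and 915 and 937 CPM in wild type proximal tubule cells (log2 difference -0.50 ± 0.27, edgeR adjusted p = 0.41). Rtn3, a reticulon whose translation RBM3 raises in cooled mouse brain, had 140 and 141 CPM in Gulo-/- and 98.4 and 90.0 CPM in wild type cells (0.41 ± 0.25, edgeR adjusted p = 0.47). Of 3 receptor components reported for extracellular CIRBP, Ly96, the partner of Tlr4, was the single one with enough counts in proximal tubule and endothelial cells, and it was not called by edgeR or DESeq2. In macrophages and the thick ascending limb none of the 3 had enough counts.

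**Figure D5:**
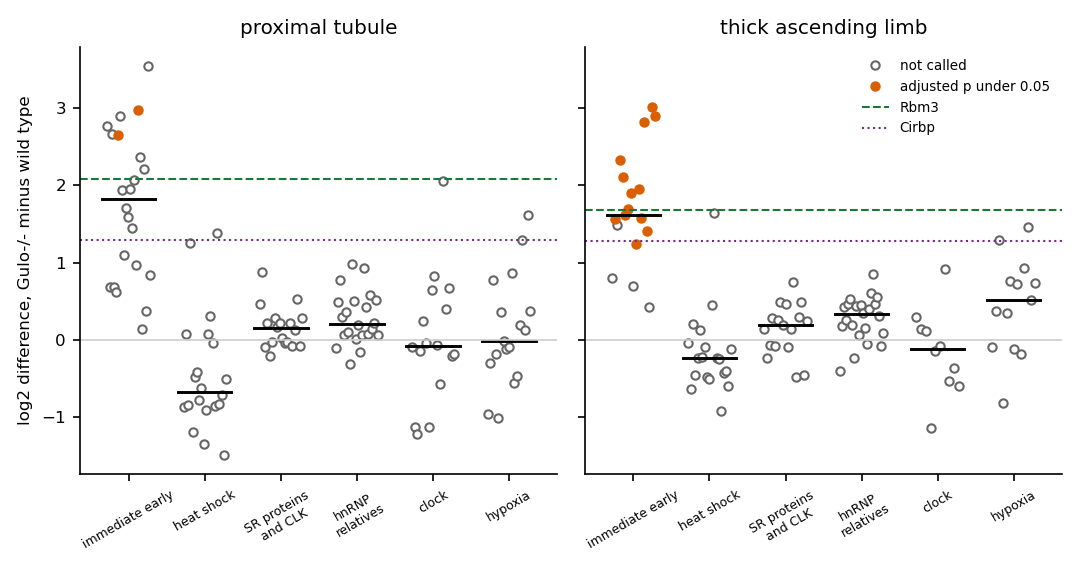
Log2 differences (Gulo-/- minus wild type) of the tested members of 6 gene lists in proximal tubule (left) and thick ascending limb (right) gated cells, with the list median (black bar), genes at an edgeR adjusted p under 0.05 (filled orange) and the values of Rbm3 (dashed line) and Cirbp (dotted line). The immediate early list has 2 filled points and a median of 1.83 on the left and 13 filled points and a median of 1.62 on the right.

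The genes most like each of the pair over 16 points (4 libraries by 4 classes) were ranked by Pearson's r of log2(CPM + 10) among 2354 genes. The points share libraries, depth and cells, and r is given as a description. Closest to Rbm3 were Rpl6l (r = 0.864), Aqp2 (0.843), S100g, encoding a calcium-binding protein (0.778), Fkbp5, a glucocorticoid-induced co-chaperone (0.775), and Cirbp (0.770). Closest to Cirbp were the SR protein gene Srsf5 (0.856), Card19 (0.822), Aqp2 (0.802), Hnrnpdl (0.791) and Gtf2a2 (0.784), with Rbm3 in seventh place. Aqp2 is the principal cell gene whose UMIs outside principal cells were described above.

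No region among the 86510 in the authors' deposited table of methylation differences was annotated to Cirbp. The labels and the table do not state which genotype stands on which side, nor the sex behind them, so the sides are called 1 and 2 as the columns number them, and no direction by genotype can be given. No region touched either promoter window of Cirbp. The authors' deposited table has 2 regions that overlap the 3' end of the Cirbp gene and that it annotates to the promoter of 1600002K03Rik. The region chr10:80171900-80172146 had mean methylation of 79.1% on side 1 and 66.2% on side 2 over 20 CpGs in the authors' deposited table. The region chr10:80172740-80173184 had 19.4% on side 1 and 37.2% on side 2 over 26 CpGs in the same authors' deposited table. These neighbours thus ran in opposite directions. Within 50000 bases of Cirbp the authors' deposited table has 19 regions, 18 of them lower on side 1. Of all regions 53.8% were lower on side 1, and of those on chromosome 10 58.5%. Several of the 19 are annotated as promoter, and 78.7% of promoter regions on chromosome 10 were lower on side 1. Within the same distance of Rbm3, 4 of 12 regions of the authors' deposited table were lower on side 1, beside 29.7% on chromosome X.

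Rbm3 had 4 regions in the authors' deposited table, a number that 42.1% of genes with a region reached. Nearest its start, chrX:8145688-8145802, annotated as promoter, had 35.5% on side 1 and 49.0% on side 2 over 15 CpGs in the authors' deposited table. The other 3 were higher on side 1. In the authors' deposited table chrX:8142873-8143077, also annotated as promoter but inside the gene, had 87.0% on side 1 and 66.9% on side 2 over 6 CpGs, and the intronic chrX:8141258-8141527 had 86.7% on side 1 and 64.4% on side 2 over 4 CpGs. The fourth in the authors' deposited table, chrX:8153095-8153489, lies upstream at -7215 bases from the Rbm3 start and had 92.9% on side 1 and 74.9% on side 2 over 9 CpGs. The promoter region's difference of 13.5 percentage points was small for this table, where 87.3% of regions differed by at least as much. On chromosome X as a whole, 75.0% of promoter regions and 29.7% of all regions of the authors' deposited table were lower on side 1, while of the 2 Rbm3 regions annotated as promoter 1 was lower. The coverage behind these values is unknown, and no test was made of them.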

How the data were processed

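The authors deposited raw UMI counts per gene and barcode for each single-cell library, per the file headers. The submitters' processing notes name mm10, Seurat 2.3.4 and MACS2 2.1.2, with no counting tool among them. The deposited methylation table gives each region's mean methylation as a fraction per side, its CpGs and its distance to a start site, with no coverage. The authors' marker table gives natural log ratios, p-values (not used here) and the fraction of cells with a gene, per the file headers.

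Cells with at least 500 UMIs and 200 genes and at most 50% mitochondrial UMIs were kept. A gate needed 2 markers, 3 UMIs and 2 per 1000 UMIs. A proximal tubule cell passed no other gate, and cells passing several other gates were left out (0.438% to 12.6% per library) and no doublet caller was run. Between 14.6% and 38.7% of cells passed no gate. Shares were thinned to 1000 UMIs as exact hypergeometric expectations. UMI sums per library and class (at least 20 cells in every library) were fitted with edgeR 4.0.16 (TMM, filterByExpr, robust quasi-likelihood F test, R 4.3.3), Benjamini-Hochberg over all genes tested. The fit was tested on simulated data. Alternatives were DESeq2 1.42.0, its size factors, no filter, a replicate block, a sex block, other cell filters and each library left out. Named genes were called list members (at most 6 per list and class, largest change), up to 4 abundant uncalled members per list, and the 5 most alike genes with a mean of at least 50 CPM. The members and lists were chosen with earlier results of these data known.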

Additional observations from a re-analysis of the deposited data

How the results depend on the processing

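Rbm3 was higher in Gulo-/- cells in 63 of 63 alternative values (log2 0.88 to 2.38) and Cirbp in 61 of 62. The exception was Cirbp in thick ascending limb cells without Gulo-/- replicate 2, at -0.12. Leaving out 1 library at a time, with the lone library assumed to vary like the others, Rbm3 ranged from 1.44 to 1.91 (all cells), 1.82 to 2.38 (proximal tubule), 1.63 to 1.77 (thick ascending limb), 1.05 to 1.94 (endothelial) and 0.88 to 1.98 (macrophage). Cirbp ranged from 0.50 to 2.28, 0.17 to 2.24, -0.12 to 2.82, 0.67 to 2.45 and 1.78 to 2.81 in these classes. Genes called (0, 54, 141, 41 and 20) ranged from 0 to 841, 0 to 853, 21 to 198, 2 to 58 and 19 to 287.

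DESeq2 called 2513 genes in all cells, 243 in proximal tubule, 17 in thick ascending limb, 96 in endothelial and 10 in macrophage cells. No filter on low counts gave 2399, 838, 391 and 129 in all, proximal tubule, endothelial and macrophage cells, and the replicate block gave 1236, 380, 120 and 141. That block also called 3 of 20 heat shock genes lower in proximal tubule cells, and 11 of 22 immediate early genes higher. Of all 10585 genes it called 151 lower and 229 higher there. With the replicate block Rbm3 was 2.11 and Cirbp 1.26 in proximal tubule cells. Same-numbered libraries deviated together with a correlation of -0.05 to 0.15. With 2 libraries per genotype this cannot decide whether the numbers pair them. The sex block, which is the crossed pairing, gave 32 in proximal tubule and 0 in macrophage cells. The doubled gate minimum gave 13, 25 and 13 in proximal tubule, endothelial and macrophage cells. Keeping shared barcodes gave 86 in proximal tubule and 103 in endothelial cells. Removing the top 5% of cells by UMIs gave 0 in endothelial and 34 in macrophage cells, and a mitochondrial limit of 25% gave 0 in macrophages. The causes were not tested. Counts of called genes thus depend on the settings, and wild type replicate 1 held at most 94 cells in any class but proximal tubule. Thinning lowered the share of cells with a UMI in 39 of 40 values beyond counting error. Not run were the distal convoluted and connecting tubule fits, the limit of 25% in thick ascending limb (too few cells), the doubled gate over all cells, and Cirbp in macrophages without Gulo-/- replicate 2, where it was too low to be tested.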
